A study of Mus musculus with 10 samples.

Results

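The genes described here are 29 genes of inhibitory neurotransmission in mouse brain: the subunits of the GABA and glycine receptors, the receptor scaffold gephyrin, and the proteins that make, load, take up and break down GABA. They were chosen by name, with earlier results of these data known, so their counts beside those of all genes are descriptive. Each was read from the brightest of the probe sets that name it alone, and all 29 were among the 30142 genes tested. Tissue was taken from adult male and female mice, 8 to 12 weeks old, 7 days after a controlled cortical impact, a model of traumatic brain injury in which a driven tip indents the cortex on one side, here by 2 mm. The 5 ipsilateral samples came from the impact site and the 5 contralateral samples from the matching region of the other hemisphere, and each was measured on 1 whole-transcript Affymetrix array. Both groups therefore come from injured mice, no sham-operated mouse was among the samples, and the labels give neither the strain nor the sex of a sample.

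GABA is the main inhibitory transmitter of the forebrain. It opens GABA-A receptors, pentameric chloride channels usually built from alpha, beta and a gamma or delta subunit, and it activates GABA-B receptors, which are G protein-coupled dimers of the Gabbr1 and Gabbr2 products. Receptors with a gamma subunit gather at synapses, whereas those with the delta subunit lie outside synapses and carry tonic inhibition. Glycine receptors are related chloride channels of alpha and beta subunits, best known from spinal cord and brain stem and also present in the forebrain.

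Values are log2 array signals, on which a difference of 1 is a doubling of signal. They can be compared between samples for a given gene but not between genes, since probe sets differ in brightness. In bulk tissue, fewer cells that express a gene and less RNA per cell cannot be told apart. A gene was counted as higher or lower where its adjusted p (Benjamini-Hochberg over all genes, limma) was under 0.05. Array medians lay between 4.79 and 4.84 ipsilaterally and between 4.71 and 4.77 contralaterally, and a gene at or below them was not shown to be above background.

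Some arrays stood apart in their marker genes. Ipsilateral replicate 1 had the highest mean level of 9 measured transcription factor genes of the GABAergic lineage (8.10, against 6.83 to 7.10 on the other ipsilateral arrays and 6.85 to 6.98 contralaterally). The list split on that array. Dlx1, Dlx2, Dlx5, Dlx6, Adarb2 and Sp9 had their highest value of all arrays there. Lhx6 (5.87) and Prox1 (6.97) had their lowest there, and Maf had neither. Ipsilateral replicate 3 had the highest mean levels of 9 hypothalamic and septal genes (8.61) and of 10 striatal genes (7.88), and contralateral replicate 4 the highest contralateral value of the hypothalamic and septal list (7.48). Contralateral replicate 4 also had the highest mean of the 9 thalamic genes (7.65, against 6.65 to 7.09 ipsilaterally). This list split too. Prkcd stood out on that array (8.85), but Ramp3, Gbx2, Lef1 and Slc17a6 had their highest value on other arrays. The mean of the 6 choroid plexus genes was high on the arrays numbered 2 (9.12 ipsilaterally, 9.63 contralaterally) and 4 (7.55 and 7.14). On the arrays numbered 4 not every gene took part. Otx2 (5.71 ipsilaterally, 5.73 contralaterally) was near its values on the arrays numbered 5 (5.72 and 5.68). On contralateral replicate 4, Kcne2 (6.58) lay below contralateral replicates 1 and 5 (6.93 and 6.85), and Folr1 (4.32) lay below the array's median. The 9 pan-neuronal genes, among them Rbfox3, Snap25 and Syt1, were bright on every array, with means of 13.74 to 14.15 ipsilaterally and 13.97 to 14.21 contralaterally.

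Of the 29 genes, 4 fell at the impact site and 1 rose. The 4 were the GABA-A subunit genes Gabrd, Gabra4 and Gabrb2 and the glycine receptor subunit gene Glrb, and the riser was the GABA-A subunit gene Gabra2. Over all genes tested, 4.33% fell and 1.22% rose. Both counts among the 29 were above these shares, though they rest on few genes. In 3 of the 29 every ipsilateral array lay below every contralateral one, against 5.21% of all genes, and in none did every ipsilateral array lie above, against 2.04%. Positive differences were found in 19 of the 29 and negative ones in 10. Their median was 0.20, that of all genes 0.02, and the range ran from -1.44 to 1.24. At an unadjusted p under 0.05, 18 of the 29 differed, as did 6420 of all genes. Without the arrays that stood apart, omissions chosen after seeing the data, the counts moved. They were 3 higher and 9 lower without ipsilateral replicates 1 and 3, when 2804 genes were called, and 1 higher (Slc6a13) and 0 lower without replicates 2 and 4 of both sides, when 366 were. The count of rises was 5 without contralateral replicate 4, and 0 without any 1 of ipsilateral replicates 2, 4 and 5 or contralateral replicates 1, 2, 3 and 5. Rises made up 22.0% of the calls over all genes, and 8.13% after centring the arrays on their medians.

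**Figure D1:**
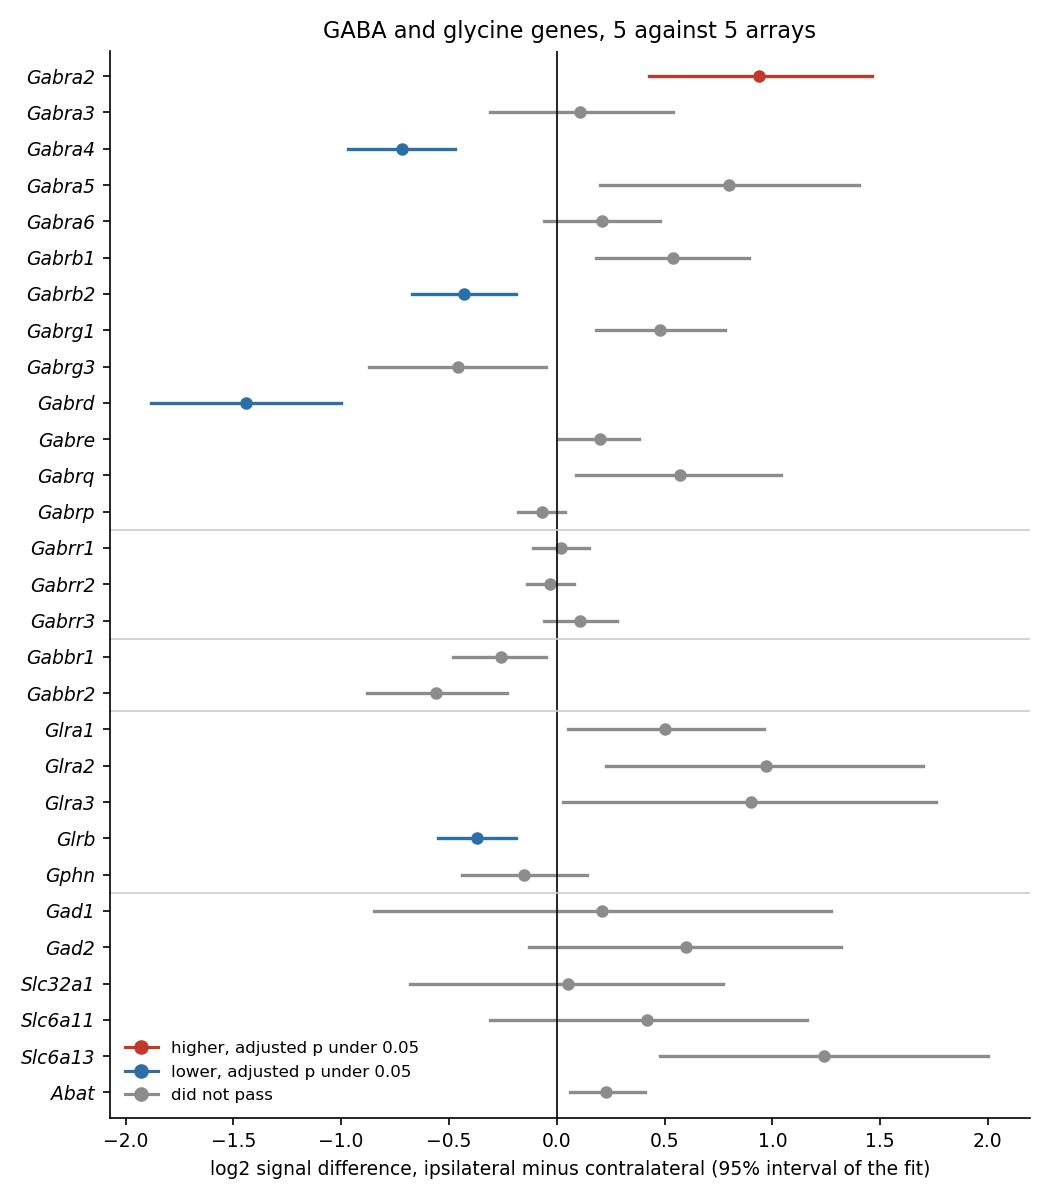
Log2 signal difference, ipsilateral minus contralateral, with its 95% interval for each of the 29 genes (5 arrays per side), grouped from top to bottom as GABA-A subunits, rho subunits, GABA-B subunits, glycine receptor and scaffold genes, and synthesis and transport genes. Gabrd (-1.44), Gabra4 (-0.72), Gabrb2 (-0.43) and Glrb (-0.37) are marked as lower and Gabra2 (0.94) as higher, and the intervals of Gad1 and Slc32a1 are wide and span 0.

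The GABA-A subunit genes moved in opposite directions. Of 13 such genes 3 fell and 1 rose, and 9 did not pass the test. The largest fall among the 29 genes was that of Gabrd, which encodes the delta subunit of extrasynaptic receptors. Its log2 signal was 7.53, 6.54, 6.90, 6.71 and 6.32 on ipsilateral arrays 1 to 5, against 8.46, 8.15, 8.20, 7.96 and 8.44 on contralateral arrays 1 to 5. The groups did not overlap, and ipsilateral replicate 1 lay closest to the contralateral arrays. The difference was -1.44 ± 0.20 (SE), so the signal was 2.72-fold lower ipsilaterally (adjusted p = 0.00297, limma).

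Gabra4 encodes the alpha-4 subunit, which partners the delta subunit in thalamus, striatum, dentate gyrus and neocortex. It stood at 12.32, 12.46, 12.61, 12.11 and 12.11 on the ipsilateral arrays, against 13.19, 12.99, 12.93, 13.24 and 12.88 on the contralateral ones. Again no ipsilateral array reached the contralateral range. The fall was 0.72 ± 0.11 on the log2 scale, a 1.65-fold lower signal (adjusted p = 0.00515). Both falls kept their call in each of the 10 fits that left out 1 array. They lost it without the arrays numbered 2 and 4, which left 3 per side (Gabrd -1.45, adjusted p = 0.0722, and Gabra4 -0.65, adjusted p = 0.107).

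Gabrb2 encodes the beta-2 subunit, an abundant partner in synaptic receptors of the adult forebrain. Its values were 14.35, 14.25, 14.69, 14.01 and 14.22 ipsilaterally and 14.86, 14.67, 14.77, 14.69 and 14.68 contralaterally. Ipsilateral replicate 3 lay inside the contralateral range and the other 4 ipsilateral arrays below it. The difference of -0.43 ± 0.11 just passed (adjusted p = 0.0479), and of the 10 fits without 1 array it passed only in the one without ipsilateral replicate 3 (otherwise 0.0562 to 0.120).

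Gabra2, the only member that rose, encodes the alpha-2 subunit, which is enriched in limbic forebrain and at the axon initial segment of pyramidal cells. It stood at 14.91, 15.82, 15.67, 15.15 and 15.52 ipsilaterally, against 14.37, 14.21, 14.16, 15.27 and 14.34 contralaterally. The groups overlapped through contralateral replicate 4, which lay far above the other contralateral arrays and above ipsilateral replicates 1 and 4. The difference was 0.94 ± 0.23, a 1.92-fold higher signal (adjusted p = 0.0414). The call was kept without ipsilateral replicate 1 or contralateral replicate 4 and lost in the other 8 fits that left out 1 array (adjusted p = 0.0554 to 0.108). The dimmer of the 2 probe sets that name Gabra2 had a difference of 1.15 ± 0.25, with contralateral replicate 4 again the highest contralateral array (14.20, against 13.06 to 13.48).

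**Figure D2:**
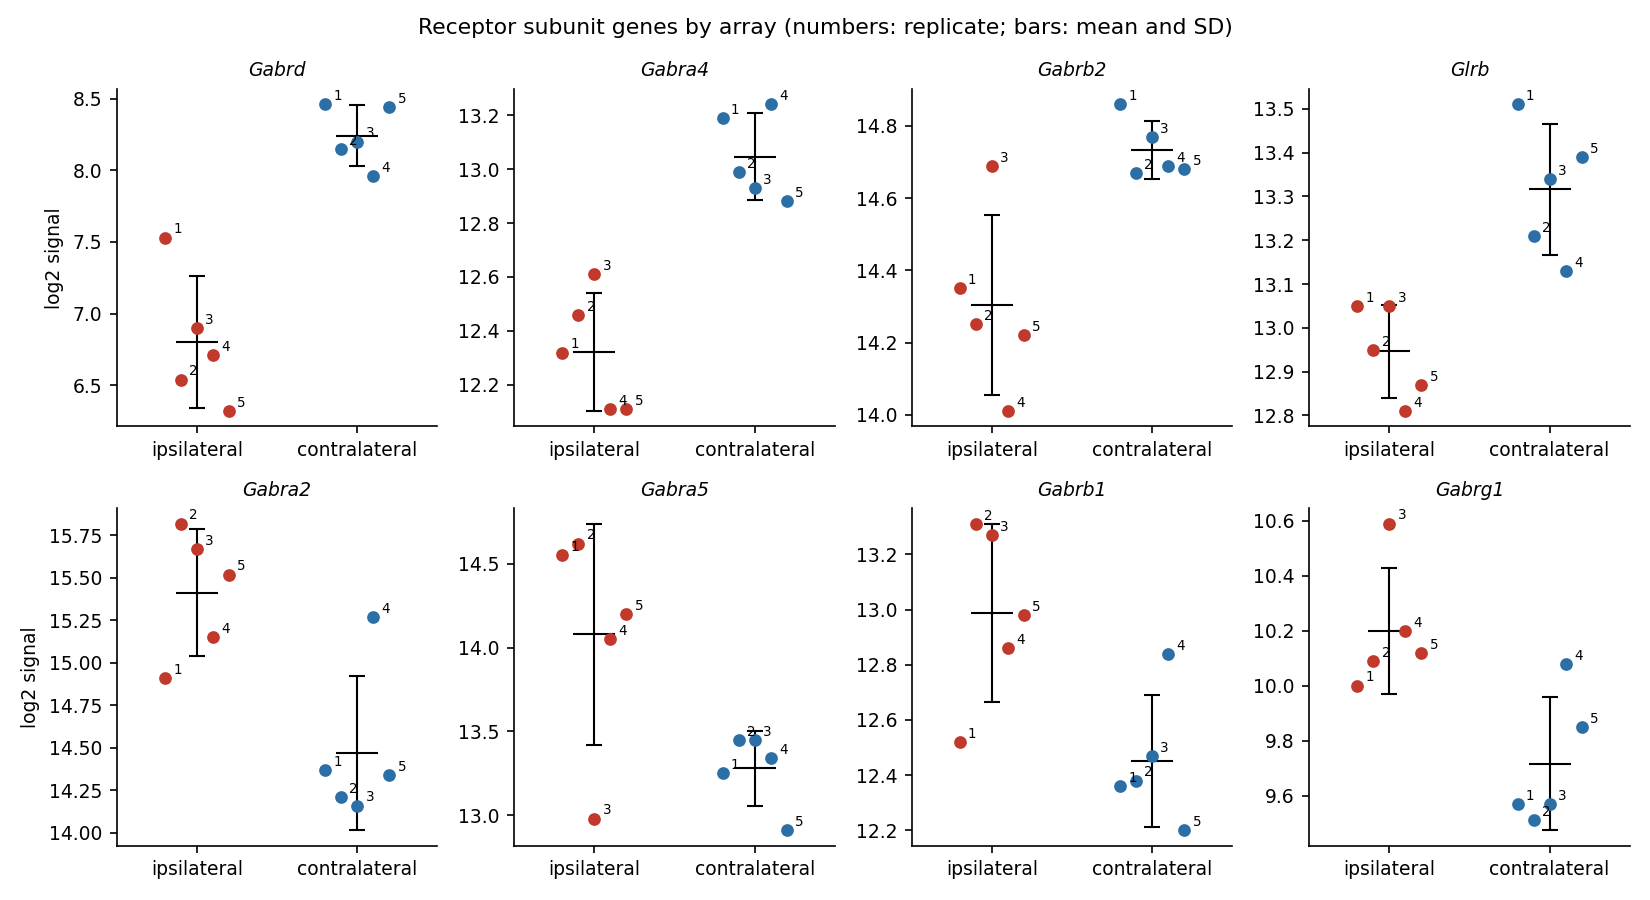
Log2 signal of 8 receptor subunit genes by array, ipsilateral left and contralateral right, with the replicate number beside each point and the mean and SD as bars (n = 5 per side, each panel with its own axis). Gabrd, Gabra4 and Glrb show no overlap between sides, while contralateral replicate 4 sits above the other contralateral arrays for Gabra2 (15.27), Gabrb1 (12.84) and Gabrg1 (10.08).

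Gabra2 and Gabra4 belong to a cluster on chromosome 5. The cluster runs, by RefSeq's annotation of GRCm38.p6, in the order Gabrg1, Gabra2, Gabra4, Gabrb1, with 1 other protein-coding gene between Gabra2 and Gabra4 and none between the other neighbours. The 4 genes did not move as a block: Gabra2 rose, Gabra4 fell, and the positive differences of the other two did not pass. Gabrb1, for the beta-1 subunit, stood at 12.52, 13.31, 13.27, 12.86 and 12.98 ipsilaterally and 12.36, 12.38, 12.47, 12.84 and 12.20 contralaterally (0.54 ± 0.16, adjusted p = 0.0825). Gabrg1, for the gamma-1 subunit, stood at 10, 10.09, 10.59, 10.20 and 10.12 ipsilaterally and 9.57, 9.51, 9.57, 10.08 and 9.85 contralaterally (0.48 ± 0.14, adjusted p = 0.0669). In both, contralateral replicate 4 was the highest contralateral array and made the groups overlap. Both passed without it (Gabrb1 0.64, adjusted p = 0.0431, and Gabrg1 0.57, adjusted p = 0.0275), and Gabrb1 also passed without ipsilateral replicate 1 (adjusted p = 0.0211).

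The start regions of the 4 genes are shown because neighbours with opposite differences begin close together here. Each RefSeq window (GRCm38.p6, 5′ to 3′ on the gene's strand) holds 300 bases, 250 before the annotated start and 50 from it on. Capitals mark matches on either strand to CCAAT, or to GCGNGGGCG, the site of the Egr family of activity-induced factors. The Gabrg1 window lies at chr5:70842568-70842867 on the minus strand, that of Gabra2 at chr5:71095800-71096099 on the minus strand, that of Gabra4 at chr5:71658259-71658558 on the minus strand, and that of the upstream Gabrb1 start at chr5:71657671-71657970 on the plus strand.
Gabrg1: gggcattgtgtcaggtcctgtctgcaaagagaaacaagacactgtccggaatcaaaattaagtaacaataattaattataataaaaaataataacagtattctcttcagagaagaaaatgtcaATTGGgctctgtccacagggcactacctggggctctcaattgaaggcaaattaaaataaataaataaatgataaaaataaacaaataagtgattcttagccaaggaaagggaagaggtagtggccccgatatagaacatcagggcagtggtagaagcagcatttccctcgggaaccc
Gabra2: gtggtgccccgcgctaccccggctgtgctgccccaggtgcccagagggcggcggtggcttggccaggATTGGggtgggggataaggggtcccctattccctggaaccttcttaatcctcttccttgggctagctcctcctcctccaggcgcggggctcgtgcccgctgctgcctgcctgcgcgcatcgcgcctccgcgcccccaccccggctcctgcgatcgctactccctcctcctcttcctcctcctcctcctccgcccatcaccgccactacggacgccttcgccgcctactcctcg
Gabra4: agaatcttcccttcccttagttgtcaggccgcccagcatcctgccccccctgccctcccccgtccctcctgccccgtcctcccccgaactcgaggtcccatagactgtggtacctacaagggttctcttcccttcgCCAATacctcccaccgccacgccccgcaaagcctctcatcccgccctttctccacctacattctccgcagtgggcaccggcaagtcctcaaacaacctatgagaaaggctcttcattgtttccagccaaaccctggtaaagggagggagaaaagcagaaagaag
Gabrb1: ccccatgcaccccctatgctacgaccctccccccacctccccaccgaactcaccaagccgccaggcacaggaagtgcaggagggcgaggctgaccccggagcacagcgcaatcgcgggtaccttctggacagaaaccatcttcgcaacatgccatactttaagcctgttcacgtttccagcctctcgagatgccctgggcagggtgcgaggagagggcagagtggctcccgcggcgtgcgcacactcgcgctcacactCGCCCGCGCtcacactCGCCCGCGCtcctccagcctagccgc

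The upstream Gabrb1 start lies 387 bases from the Gabra4 start on the opposite strand, so that the annotated 5′ ends of the genes overlap. A further annotated Gabrb1 start lies 42011 bases downstream of the upstream one. Bases G and C made up 70.0% of the Gabra2 window, 66.0% of the Gabrb1 window, 58.7% of the Gabra4 window and 38.3% of the Gabrg1 window, where the median over all 32851 windows of the table was 52.7%. The Gabrb1 window holds 2 matches to GCGNGGGCG and none to CCAAT. The other 3 windows hold 1 match each to CCAAT and none to GCGNGGGCG. Over all windows, 37.4% hold CCAAT and 5.55% hold GCGNGGGCG. Of the 32 windows of the 26 members that have one, 15 (46.9%) hold CCAAT and 5 (15.6%) hold GCGNGGGCG, the 5 belonging to Gad1, Gabrb1, Gabrb2, Glra3 and Gphn. Several members have more than 1 window, so these windows are not independent. TGACGTCA, the cAMP response element, and TGANTCA, the AP-1 site, matched no window of a member and 1.79% and 7.81% of all windows. The searched motifs do not overlap one another in these windows. These matches describe letters and not bound sites.

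Within an array, the difference between 2 genes is free of a shift common to all log2 values of that array. It is not free of scaling that depends on brightness. Gabra2 minus Gabra4 was 2.59 to 3.41 on the ipsilateral arrays and 1.18 to 2.03 on the contralateral ones, with no overlap. Gabrb1 minus Gabra4 was 0.20 to 0.87 ipsilaterally and -0.83 to -0.40 contralaterally. Gabrb1 minus Gabrb2, the gap between both beta genes, was -1.83 to -0.94 ipsilaterally and -2.50 to -1.85 contralaterally. In these 3 pairs a gene with a positive difference is set against one that fell, so the gaps largely restate the differences given above, and their absolute size carries no meaning because the probe sets differ. In the other 5 pairs computed the sides overlapped. Gad2 minus Gad1 was -1.12 to 0.81 ipsilaterally and -0.74 to 0.03 contralaterally, and Gabrd minus Gabra4 was -5.92 to -4.79 ipsilaterally and -5.28 to -4.44 contralaterally. The other overlapping pairs were Glra2 minus Glrb, Glra3 minus Glrb and Gabra5 minus Gabrg3.

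**Figure D3:**
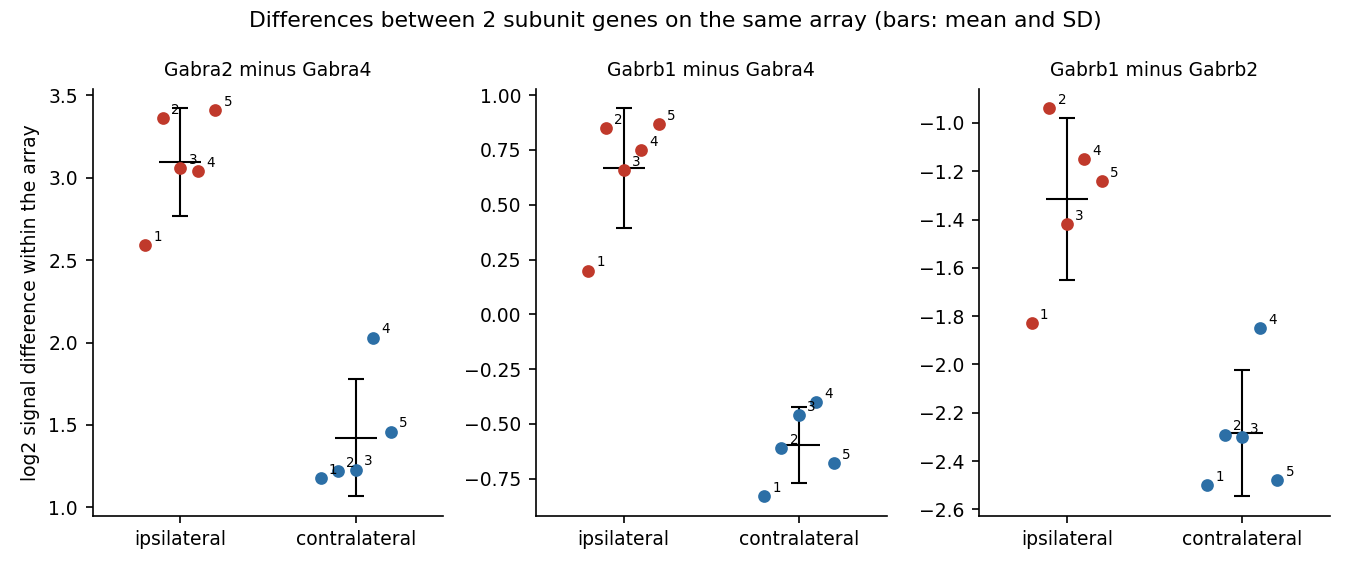
Differences in log2 signal between 2 subunit genes on the same array, ipsilateral left and contralateral right, with replicate numbers and the mean and SD as bars (n = 5 per side). In the 3 pairs no ipsilateral array overlaps a contralateral one, and ipsilateral replicate 1 and contralateral replicate 4 lie closest to the other side.

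The remaining GABA-A genes did not pass. Gabra5, whose alpha-5 subunit is prominent in hippocampus, stood at 14.55, 14.62, 12.98, 14.05 and 14.20 ipsilaterally and 13.25, 13.45, 13.45, 13.34 and 12.91 contralaterally. Here 4 ipsilateral arrays lay above all contralateral ones and ipsilateral replicate 3 among the lowest of all 10. The difference was 0.80 ± 0.27 (adjusted p = 0.122), and without that array it was 1.07 (adjusted p = 0.00496). Gabrg3, the neighbour of Gabra5 on chromosome 7 that encodes the gamma-3 subunit, had a negative difference of -0.46 ± 0.19 (adjusted p = 0.188), with 8.99, 8.60, 9.25, 8.11 and 8.57 ipsilaterally and 9.34, 9.34, 9.06, 8.99 and 9.07 contralaterally. In this pair, too, the differences pointed in opposite directions, and neither passed.

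Gabra3, for the alpha-3 subunit, differed little, with means of 13.44 ± 0.38 ipsilaterally and 13.33 ± 0.30 contralaterally (SD, n = 5 each) and a 95% interval of the difference from -0.31 to 0.54. Its X-linked neighbours Gabrq and Gabre encode the theta and epsilon subunits, known from hypothalamus and brain stem. Gabrq was 5.02 to 6.12 ipsilaterally, with ipsilateral replicate 3 far above the rest, and 4.50 to 5.25 contralaterally (0.57 ± 0.21, adjusted p = 0.159). On contralateral replicates 1, 2 and 5 Gabrq lay below the array's median, so signal above background was not shown there. Gabre (4.14 to 4.62 ipsilaterally and 4.11 to 4.22 contralaterally) and Gabrp, for the pi subunit (3.77 to 3.86 ipsilaterally and 3.81 to 3.94 contralaterally), lay below every array median. Gabra6, whose alpha-6 subunit is typical of cerebellar granule cells, had means of 4.58 ipsilaterally and 4.37 contralaterally, also below the medians. The rho subunit genes Gabrr1, Gabrr2 and Gabrr3, best known from retina, ranged from 3.77 to 4.61 ipsilaterally and from 3.67 to 4.65 contralaterally. Signal above background was therefore not shown for 6 of the 29 genes, and no side difference can be read from them.

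Both GABA-B receptor genes had negative differences that did not pass. Gabbr2, whose product couples to the G protein, stood at 14.64, 15.30, 15.33, 14.68 and 14.80 ipsilaterally and 15.54, 15.33, 15.47, 15.72 and 15.47 contralaterally. The groups met at 15.33, the highest ipsilateral and the lowest contralateral value, and the difference was -0.56 ± 0.15 (adjusted p = 0.0559). It passed when the arrays were centred on their medians (-0.63, adjusted p = 0.0250), and without ipsilateral replicate 2 (0.0379) or 3 (0.0268). With quantile (-0.71, 0.0497) and cyclic loess scaling (-0.61, 0.041) it passed too. Among 23 alternative fits it passed in 8 and not in 15. Gabbr1, whose product binds GABA, was 13.24 to 13.74 ipsilaterally and 13.48 to 13.78 contralaterally (-0.26 ± 0.10, adjusted p = 0.153), and passed only without ipsilateral replicate 3 among the single omissions (-0.34, adjusted p = 0.0408).

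Within the glycine receptor the beta subunit gene fell and the alpha subunit genes had positive differences that did not pass. Glrb encodes the beta subunit, which anchors the receptor to gephyrin. It stood at 13.05, 12.95, 13.05, 12.81 and 12.87 ipsilaterally, against 13.51, 13.21, 13.34, 13.13 and 13.39 contralaterally. The groups did not overlap, though only 0.08 separated the highest ipsilateral from the lowest contralateral array. The difference was -0.37 ± 0.08 (adjusted p = 0.0277). The call was lost in 6 of the 10 fits without 1 array, namely without ipsilateral replicate 2, 4 or 5 or contralateral replicate 1, 3 or 5 (adjusted p = 0.0583 to 0.0732).

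Glra2 and Glra3 encode the alpha-2 and alpha-3 subunits. Glra2 stood at 9.20, 9.72, 10.91, 9.91 and 9.71 ipsilaterally and 8.89, 8.37, 8.76, 9.89 and 8.70 contralaterally (0.97 ± 0.33, adjusted p = 0.124). Glra3 stood at 9.36, 10.13, 11.46, 10.08 and 9.73 ipsilaterally and 8.82, 8.94, 9.38, 10.28 and 8.86 contralaterally (0.90 ± 0.39, adjusted p = 0.218). In both genes ipsilateral replicate 3 was the highest array of all, and contralateral replicate 4 lay within the ipsilateral range. For Glra3, contralateral replicate 3 (9.38) also lay within it, just above ipsilateral replicate 1 (9.36). Without contralateral replicate 4, Glra2 passed (1.21, adjusted p = 0.0406) and Glra3 did not. Glra1, for the adult alpha-1 subunit, was dim (4.92 to 5.85 ipsilaterally and 4.55 to 5.05 contralaterally). On contralateral replicates 2 and 3 it lay below the array's median, so signal above background was not shown there. Gphn, for the scaffold gephyrin, had means of 11.18 ± 0.31 ipsilaterally and 11.32 ± 0.08 contralaterally with an interval of the difference from -0.44 to 0.14.

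A pair of arrays led many of these genes. On all 10 arrays, 21 of the 29 genes lay above the highest array median. Among these 21, ipsilateral replicate 3 was the highest ipsilateral array in 10, contralateral replicate 4 the highest contralateral array in 11, and 6 met both conditions. These were Gabra3, Gabra4, Gabrg1, Gabbr2, Glra2 and Glra3. The share of all genes led by these arrays was not counted. Over all genes, the deviations of both arrays from their side means correlated at 0.414. Pairs of opposite arrays ranged from -0.399 to 0.485. The same arrays led the hypothalamic and septal marker list on their sides. That list ranged from 7.59 to 8.61 ipsilaterally and from 6.80 to 7.48 contralaterally, with no overlap. All 9 of its genes had positive differences and 2 rose, Zcchc12 by 1.15 and the neurotensin gene Nts by 1.44. The Nts call was lost in 6 of the 10 fits without 1 array, namely without ipsilateral replicate 3, 4 or 5 or contralateral replicate 1, 2 or 5, with an adjusted p of at most 0.0766. The Zcchc12 call was lost in 1, without contralateral replicate 1 (0.0508), and both were lost without replicates 2 and 4 of both sides (Nts 0.211 and Zcchc12 0.0907). The part of this list, or of the thalamic list that contralateral replicate 4 led, in the differences of Gabra2, Gabrg1, Glra2 and Glra3 was not tested. Of the 12 measured neocortical excitatory genes 5 fell (Tbr1, Cux1, Cux2, Rorb and Nrgn), 1 rose (Bcl11b) and 6 did not pass, with list means of 9.98 to 10.12 ipsilaterally and 10.52 to 10.68 contralaterally, and their part in the falls of Gabrd, Gabra4, Gabrb2 and Glrb was not tested.

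**Figure D4:**
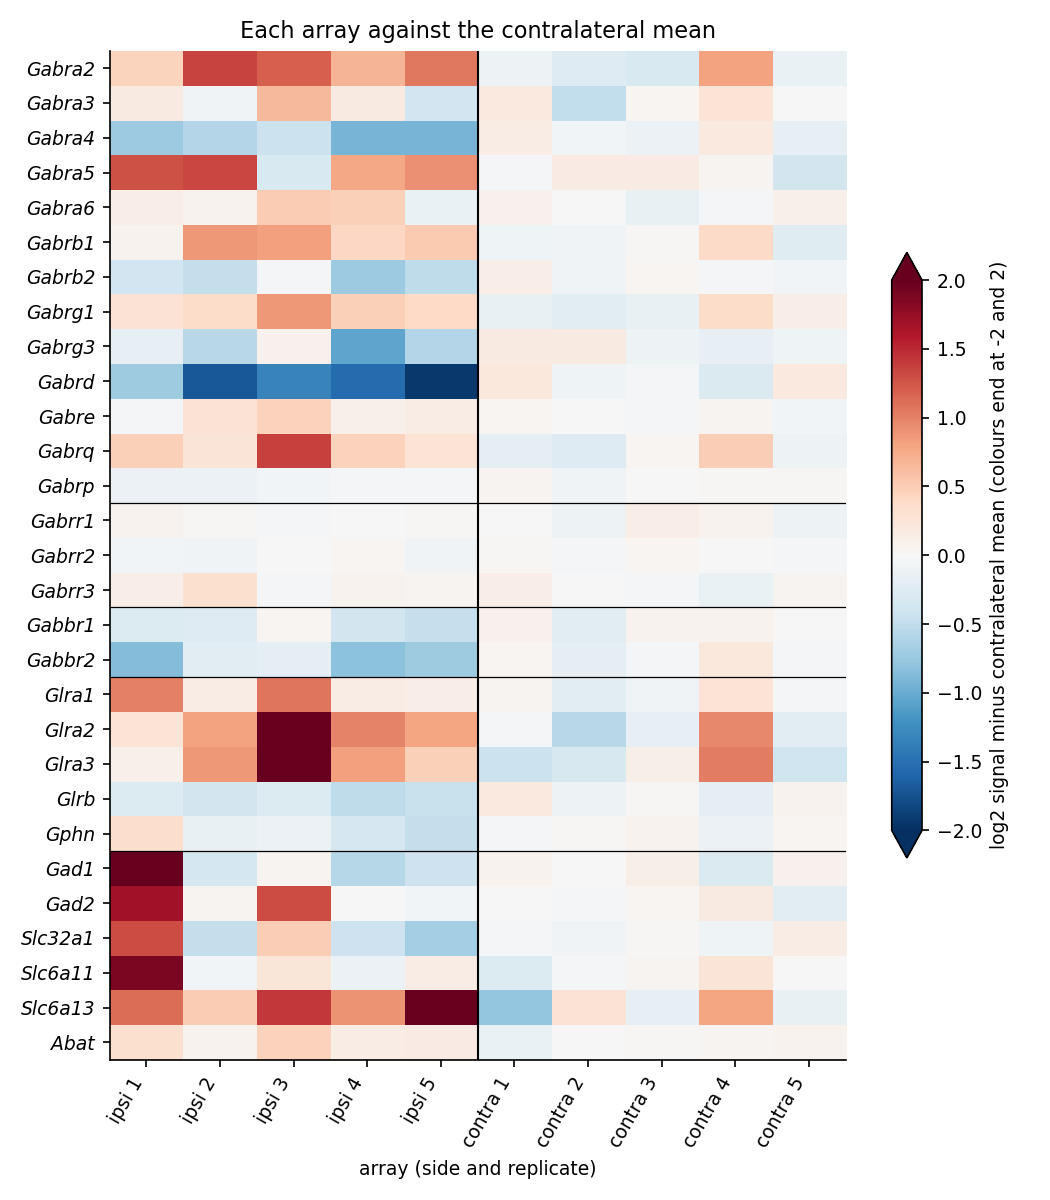
Log2 signal of the 29 genes on each of the 10 arrays minus the gene's contralateral mean, ipsilateral columns left and contralateral columns right, with colours ending at -2 and 2. Gabrd and Gabra4 are blue on all 5 ipsilateral arrays, Glra2 and Glra3 are darkest on ipsilateral replicate 3 and red on contralateral replicate 4, and Gad1, Gad2, Slc32a1 and Slc6a11 are darkest on ipsilateral replicate 1.

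The genes that make and package GABA did not pass the test between sides, but they varied widely among ipsilateral arrays. Gad1, for the glutamate decarboxylase GAD67 that makes most brain GABA, stood at 14.65, 11.94, 12.35, 11.72 and 11.88 ipsilaterally, against 12.37, 12.30, 12.42, 12.01 and 12.39 contralaterally. Ipsilateral replicate 1 was the highest of all arrays, and the other 4 ipsilateral arrays lay within or below the contralateral range. The difference was 0.21 ± 0.48, with an interval from -0.85 to 1.27 (adjusted p = 0.855), and it was -0.33 without ipsilateral replicate 1 (adjusted p = 0.170).

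Gad2, for the synaptic isoform GAD65, stood at 13.53, 11.92, 13.16, 11.85 and 11.81 ipsilaterally and 11.87, 11.83, 11.90, 12.04 and 11.65 contralaterally. Ipsilateral replicates 1 and 3 were high and the other 3 lay within the contralateral range (0.60 ± 0.33, adjusted p = 0.332). Slc32a1, for the vesicular transporter that loads GABA and glycine into synaptic vesicles, stood at 11.96, 10.17, 11.14, 10.24 and 9.97 ipsilaterally and 10.63, 10.58, 10.68, 10.56 and 10.80 contralaterally. Here ipsilateral replicates 1 and 3 lay above the contralateral range and replicates 2, 4 and 5 below it, so that the means nearly coincided (10.70 ± 0.84 ipsilaterally and 10.65 ± 0.10 contralaterally, SD). The interval of that difference ran from -0.68 to 0.77. Without ipsilateral replicates 1 and 3, an omission chosen after their values had been seen, Gad1 (-0.45, adjusted p = 0.0327) and Slc32a1 (-0.52, adjusted p = 0.00896) were lower and Gad2 was not (0.002). Both omitted arrays were high in these very genes, so these p-values are not independent of the choice.

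The uptake and breakdown genes had positive differences, none of which passed. Slc6a11 encodes GAT3, the astrocytic GABA transporter. It stood at 15.55, 13.60, 13.90, 13.55 and 13.81 ipsilaterally and 13.39, 13.62, 13.71, 13.91 and 13.67 contralaterally (0.42 ± 0.33, adjusted p = 0.514). Only ipsilateral replicate 1 left the common range, and without it the difference was 0.06. That array had the lowest ipsilateral mean of the 10 astrocyte markers (11.12, where the ipsilateral arrays ranged from 11.12 to 12.30 and the contralateral ones from 10.83 to 11.25). It had the highest mean of GABAergic lineage genes, none of which passed the test between sides, though Lhx6 and Prox1 were lowest there. The part of either list in the Slc6a11 value of that array was not tested.

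Slc6a13 encodes GAT2, a GABA transporter of the leptomeninges and of vessels. It had the largest positive difference of the 29 genes, 1.24 ± 0.34, a 2.37-fold higher signal that did not pass (adjusted p = 0.0639). Its values were 8.32, 7.72, 8.63, 8.11 and 9.48 ipsilaterally and 6.44, 7.50, 7.05, 8.00 and 7.06 contralaterally. The groups overlapped because contralateral replicate 4 exceeded ipsilateral replicate 2. Without contralateral replicate 4 it passed (1.44, adjusted p = 0.0363), as it did without both sides' replicates 2 and 4 (1.96, adjusted p = 0.0467). The mean of the 10 leptomeningeal fibroblast markers was 8.02 to 9.55 ipsilaterally and 6.86 to 7.88 contralaterally, all 10 differences were positive, 3 rose (Dcn, Col1a1 and Aldh1a2) and 7 did not pass. The call of Dcn was lost in 6 of the 10 fits without 1 array (adjusted p up to 0.0672, without ipsilateral replicate 2, 4 or 5 or contralateral replicate 1, 3 or 5). That of Col1a1 was lost in 7 (up to 0.0963, without ipsilateral replicate 3 or 4 or any 1 contralateral replicate) and that of Aldh1a2 in 6 (up to 0.0747, without ipsilateral replicate 3 or 5 or contralateral replicate 1, 2, 3 or 5). Ipsilateral replicate 5 was the highest and contralateral replicate 1 the lowest array both for Slc6a13 and for that list, whose part in the difference was not tested. Abat, for the transaminase that degrades GABA, stood at 13.01 ± 0.16 ipsilaterally and 12.77 ± 0.08 contralaterally (0.23 ± 0.08, adjusted p = 0.123).

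**Figure D5:**
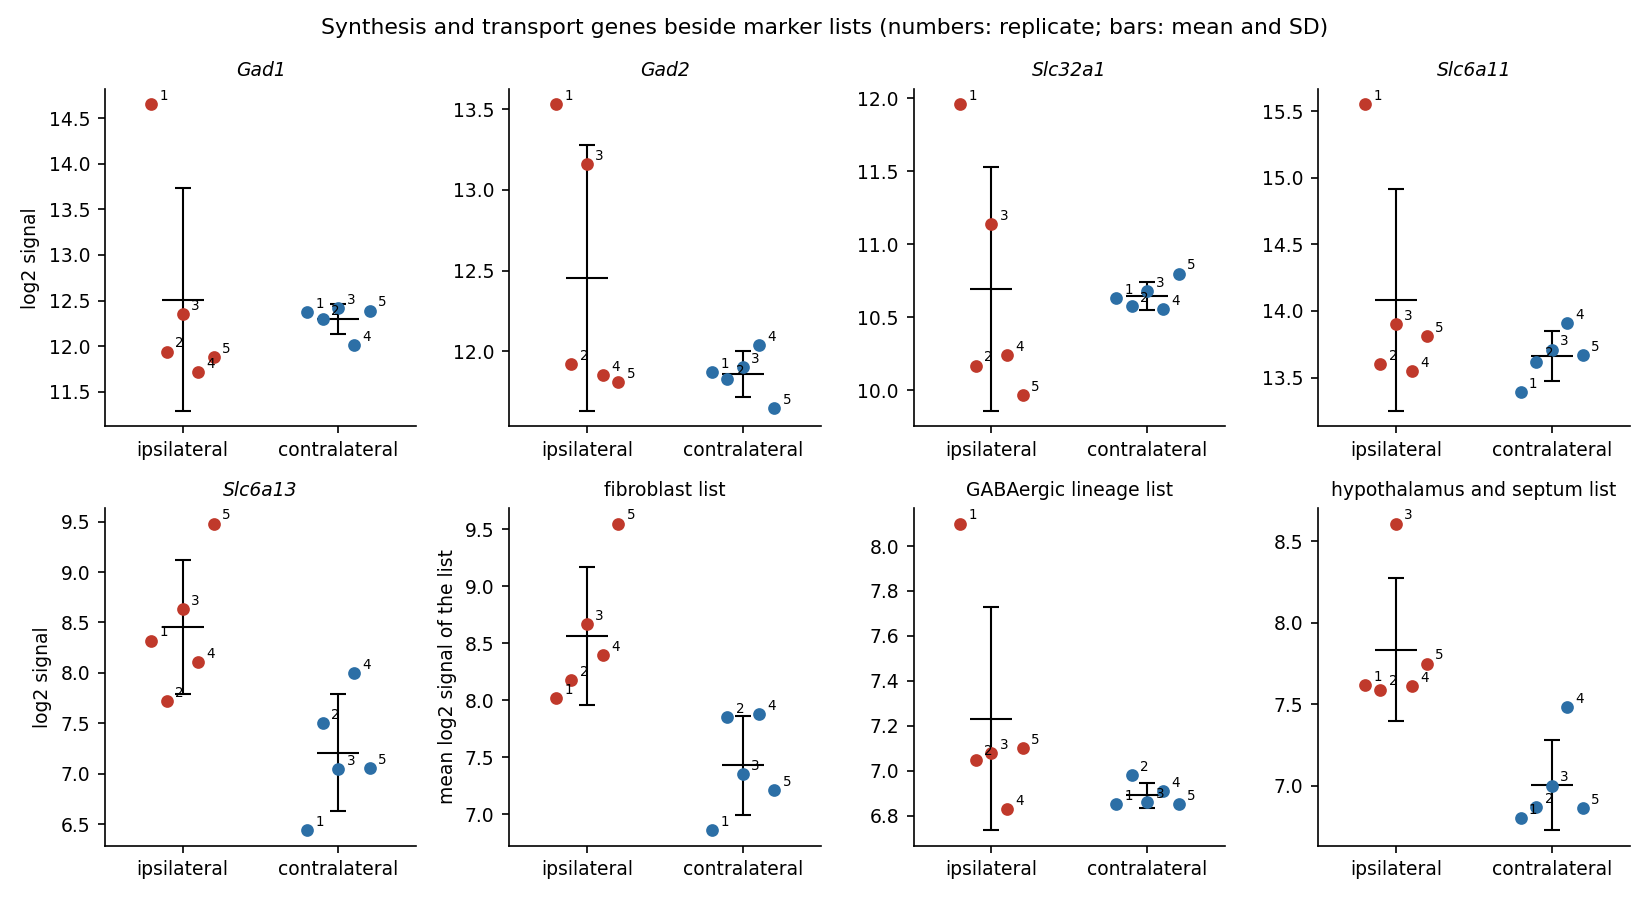
Log2 signal of 5 synthesis and transport genes by array, with the mean log2 signal of 3 marker lists, ipsilateral left and contralateral right, with replicate numbers and the mean and SD as bars (n = 5 per side, each panel with its own axis). Ipsilateral replicate 1 is highest for Gad1 (14.65), Slc6a11 (15.55) and the GABAergic lineage list (8.10), and ipsilateral replicate 5 for Slc6a13 (9.48) and the fibroblast list (9.55).

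The ipsilateral arrays were also less alike than the contralateral ones. The SD was larger ipsilaterally in 24 of the 29 genes, where 63.6% of all genes had a larger ipsilateral SD. For Gad1 the SD was 1.22 ipsilaterally and 0.17 contralaterally, for Gad2 0.82 ipsilaterally and 0.14 contralaterally, and for Slc32a1 0.84 ipsilaterally and 0.10 contralaterally.

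Relative to the mean of the pan-neuronal genes on the same array, Gabra4, Gabrd and Gabbr2 were lower on every ipsilateral array than on every contralateral one. On that scale 1.18% of all genes lay lower without overlap and 6.43% higher, and the pan-neuronal mean itself was lowest on ipsilateral replicates 4 and 5 (13.76 and 13.74), which raises every gene there. For Gabra4 that difference was -1.65 to -1.54 ipsilaterally and -1.28 to -0.97 contralaterally, and for Gabrd -7.47 to -6.44 ipsilaterally and -6.25 to -5.72 contralaterally. For Gabrb2 the sides overlapped on this scale, at 0.24 to 0.54 ipsilaterally and 0.48 to 0.70 contralaterally, as did those of Glrb, at -1.10 to -0.87 ipsilaterally and -1.08 to -0.68 contralaterally. Of the 21 genes above the array medians on all arrays, 3 were higher without overlap (Gabrg1, Gad2 and Abat). Of the pan-neuronal genes themselves 2 of 9 were lower by the test, Rbfox3 and Nefl, and none higher.

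Among interneuron subclass markers, which label the main GABA-releasing cells of cortex, 3 of 13 fell and none rose. These were Pvalb (6.59 ± 0.38 ipsilaterally and 8.42 ± 0.54 contralaterally), Vip (9.49 ± 0.43 ipsilaterally and 10.62 ± 0.15 contralaterally) and Lamp5 (10.09 ± 0.56 ipsilaterally and 12.33 ± 0.52 contralaterally). The list split both ways, with 6 positive and 7 negative differences. Its largest positive ones did not pass, namely Calb2 (2.44 ± 0.80, adjusted p = 0.108, sides not overlapping), Ndnf (1.29 ± 0.48, 0.155) and Reln (0.92 ± 0.36, 0.172), each with its highest value on ipsilateral replicate 1. Sst (12.70) and Sncg (6.49), in contrast, had their lowest value of all arrays on ipsilateral replicate 1. The list mean was 8.74 to 9.58 ipsilaterally and 8.96 to 9.17 contralaterally, and ipsilateral replicate 1 again held the highest value.

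Of 28 measured genes of the wider pathway, out of 36 listed, 1 rose and 2 fell. Over all genes tested, 1.22% rose and 4.33% fell, and the pathway counts rest on few genes. All 3 called pathway genes were among the 12 measured partners of the inhibitory postsynapse. Mdga1, whose product binds neuroligin-2 and blocks its pairing with neurexin, stood at 7.42, 6.86, 6.81, 6.78 and 6.97 ipsilaterally and 6.07, 6.13, 6.28, 6.53 and 6.12 contralaterally. The groups did not overlap (0.74 ± 0.13, adjusted p = 0.00936), and the call held in all 10 fits that left out 1 array but not without replicates 2 and 4 of both sides (0.91, adjusted p = 0.0609). Igsf9b, an adhesion molecule of inhibitory synapses, was 8.15 to 8.80 ipsilaterally and 8.80 to 9.37 contralaterally (-0.67 ± 0.16, adjusted p = 0.0375). Plcl1, which binds the receptor-trafficking protein GABARAP, was 8.00 to 8.27 ipsilaterally and 8.37 to 8.80 contralaterally (-0.41 ± 0.09, adjusted p = 0.0230). The Igsf9b call was lost in 7 of those 10 fits (adjusted p up to 0.0996, without ipsilateral replicate 2, 4 or 5 or contralateral replicate 1, 2, 3 or 5) and the Plcl1 call in 4 (up to 0.0657, without ipsilateral replicate 2 or 5 or contralateral replicate 1 or 3).

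None of the 4 measured GABA-B auxiliary subunit genes passed, and the strongest was Kctd16, at 8.43 to 9.69 ipsilaterally and 9.50 to 9.79 contralaterally (-0.72 ± 0.22, adjusted p = 0.0911). None of the 11 measured genes of GABA and glycine metabolism and transport passed either. The strongest there was Slc6a12, for the betaine and GABA transporter BGT1, at 5.26 to 5.74 ipsilaterally and 5.09 to 5.25 contralaterally (0.31 ± 0.09, adjusted p = 0.0697). Of the further receptor subunits listed, Glra4 was measured here and was dim (3.97 to 5.15 ipsilaterally and 3.98 to 4.14 contralaterally).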

How the data were processed

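The members and gene lists were chosen with earlier results of these data known. The authors deposited 1 table of log2 signals. The submitters' processing notes name Transcriptome Analysis Console 4.0. Values span 1.97 to 19.93, from which the log2 scale was inferred, and background correction, normalization and build are not given in the sources used here. Of 65956 rows, 30604 named 1 gene symbol in the array annotation. Symbols were updated through Entrez identifiers (22818 rows matched), and the row with the highest mean over the 10 arrays was kept per gene, which left 30142 genes. Sides were compared in limma 3.58.1 (R 4.3.3, lmFit and eBayes, no covariates, adjusted p threshold 0.05, two-sided). The fit was tested on simulated data with known changes. Means carry SD and differences the SE of the fit. All members were to be named, with the called and the strongest gene of each of 4 pathway lists and called genes of 16 marker lists. Whether same-numbered arrays share a mouse is not stated. Their deviations correlated at -0.399 to 0.259, while the choroid plexus list mean was high on the arrays numbered 2 and 4 of both sides. On the arrays numbered 4 not every gene of that list was high. Pairing by number was therefore neither shown nor excluded. The labels call the samples biological replicates without naming the animals, and p-values measure the spread between these samples. Intervals are at 95%. Alternatives covered the variance model, scaling, array weights, probe set choice, threshold and omitted arrays. The number of arrays limits the precision. Promoter windows are from RefSeq (GRCm38.p6).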

Additional observations from a re-analysis of the deposited data

Results flagged for a closer look

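In groups of 5 arrays, an array was looked at again where its gap to the nearest other array exceeded 0.71 of the group's range, which chance gives in about 5% of groups. Of 58 groups of members, 4 held such an array. Gad1 stood at 14.65 and Slc6a11 at 15.55 on ipsilateral replicate 1, where the other ipsilateral arrays were 11.72 to 12.35 and 13.55 to 13.90. Gabrq stood at 6.12 on ipsilateral replicate 3 (others 5.02 to 5.23), and Gabra2 at 15.27 on contralateral replicate 4 (others 14.16 to 14.37). Of 40 groups of list means, 5 held one. Ipsilateral replicate 1 was high for the GABAergic lineage list (8.10) and the interneuron list (9.58), and ipsilateral replicate 3 for the hypothalamic and septal list (8.61). Contralateral replicate 2 was high for the hippocampal list (6.72, others 6.0 to 6.21), and contralateral replicate 4 low for the oligodendrocyte list (10.54, others 11.49 to 11.86).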

How the results depend on the processing

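With 5 arrays per side, calls near the threshold moved with single arrays. Leaving out 1 array at a time gave 0 to 5 members higher and 2 to 6 lower, 851 to 2367 genes called in all, and 1 to 3 pathway genes higher and 0 to 3 lower, and the differences of Gabra3 (-0.02 to 0.23), Gabrr1 (-0.01 to 0.05), Gad1 (-0.33 to 0.41) and Slc32a1 (-0.27 to 0.23) changed sign. A fit with replicate number as a block left 0 members higher and 3 lower, 946 genes in all, and 0 pathway genes higher and 1 lower. With that block Gabra2 (adjusted p = 0.111), Gabrb2 (0.0646), Plcl1 (0.0645), Mdga1 (0.0550), Col1a1 (0.112) and Aldh1a2 (0.0749) did not pass, and only 1 of 5 ipsilateral arrays correlated best with its own number. Array weights gave 2 members and 2 pathway genes higher. Median centring gave 2855 genes, cyclic loess 1 pathway gene lower, the brighter genes alone 3 members higher, and adjusting over every probe set 0 members higher, 2 lower and 1 pathway gene lower, each gene read from its brightest probe set. There the other Gabra2 probe set did pass (1.15, adjusted p = 0.0364). A threshold of 0.01 left 0 members higher, 2 lower, 584 genes and 0 pathway genes lower. Slc32a1 turned negative with array weights (-0.09) and median centring (-0.03), and Gabrr1 with quantile (-0.04), median (-0.05) and cyclic loess (-0.04) scaling. Gabra2 did not pass with quantile (0.105) or cyclic loess (0.0544) scaling, where Gabrg1 (0.0467 and 0.0330) and Gabbr2 (0.0497 and 0.041) did. Chosen after seeing the data were 2 omissions. Without ipsilateral replicates 1 and 3, 3 members were higher and 9 lower, 2804 genes were called and 2 pathway genes were higher, with Gabra3 at -0.09, Gad1 at -0.45, Slc32a1 at -0.52 and Slc6a11 at -0.01. Without the arrays numbered 2 and 4, Slc6a13 alone was higher and 0 members were lower, 366 genes were called, and 0 pathway genes were higher and 1 lower. Causes of these changes were not tested, beyond the smaller number of arrays. Dim genes (6 members) cannot be read.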

Other observations

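The remaining marker lists place the members' values among other cells and regions. None of 10 measured striatal genes passed, with list means of 6.78 to 7.88 ipsilaterally and 6.66 to 6.91 contralaterally. Of 8 hippocampal genes 1 rose, Wfs1 (list means of 6.17 to 7.22 ipsilaterally and 6.0 to 6.72 contralaterally). Of 9 thalamic genes 1 fell, Ramp3 (6.65 to 7.09 ipsilaterally and 6.65 to 7.65 contralaterally). None of 5 cerebellar genes passed (5.48 to 5.78 ipsilaterally and 5.57 to 5.83 contralaterally). Of 10 astrocyte genes 1 rose, the water channel gene Aqp4. None of 12 microglial and macrophage genes passed, although all 12 differences were positive (8.12 to 10.02 ipsilaterally and 7.78 to 8.45 contralaterally). Of 7 measured oligodendrocyte genes 2 fell, Mal and Opalin, and all 7 differences were negative (9.82 to 11.11 ipsilaterally and 10.54 to 11.86 contralaterally). None of 4 measured oligodendrocyte precursor genes, 6 choroid plexus genes or 5 endothelial genes passed. The precursor means were 7.58 to 8.12 ipsilaterally and 7.76 to 8.12 contralaterally, the choroid plexus means 5.57 to 9.12 ipsilaterally and 5.74 to 9.63 contralaterally, and the endothelial means 9.38 to 10.10 ipsilaterally and 9.58 to 9.94 contralaterally.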
